A study of Mus musculus with 5 samples.

Results

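The integrated stress response uORF mRNAs are 6 messages of 1 stress pathway: Atf4, Atf5, Ddit3, Ppp1r15a, Ppp1r15b and Trib3. Translation of the first 5 is known to be set by short reading frames in the 5′ leader, the upstream open reading frames or uORFs. Trib3 is best known as a transcriptional target of the proteins that Atf4 and Ddit3 encode. They were picked by gene name from a table of 49875 gene IDs, and each name matched 1 ID. The table came from an RNA immunoprecipitation experiment on neocortex of wild-type mouse embryos at E13.5, labelled forebrain, when cortical progenitors are making neurons. Cells were dissociated with enzymes and lysed, and the cytoplasmic supernatant was precipitated with an antibody against eIF4E, the protein that binds the 5′ cap of mRNAs (eIF4E, n = 2), or with control rabbit immunoglobulin G (IgG, n = 1), or was sequenced as it was (Input, n = 2). All 5 libraries share genotype, age and tissue, there was no treatment, and the labels do not say how many embryos went into each library. The values are RSEM abundances, per length of transcript, either TPM or FPKM, and the sequencing depth behind them is unknown.

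In the integrated stress response, kinases that sense misfolded protein, missing amino acids, missing heme, mitochondrial damage or double-stranded RNA phosphorylate the initiation factor eIF2. Most mRNAs are then translated less. The uORFs of mRNAs such as Atf4 normally capture ribosomes before the main coding sequence, and less active eIF2 lets more ribosomes pass them. eIF4E acts earlier, where the cap is recognised, so the abundance of an mRNA with eIF4E is not a measure of whether its main reading frame is translated. In the mouse cortex this pathway is known for its part in the balance between direct and indirect neurogenesis, and Atf5 for keeping neural progenitors in cycle.

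The changes of all 6 mRNAs over Input lay within the middle 50% of the changes of all genes. Over Input, eIF4E libraries had more Atf4 (1.48-fold) and Ppp1r15b (1.27-fold) and less Atf5 (0.812), while Ddit3, Ppp1r15a and Trib3 did not pass the test. That is 3 of 6 members called, where 73.9% of the 12769 genes tested were called. With values as deposited, none of the members changed by as much as 2-fold over Input. Atf4 held its direction and its call in each of the 13 alternative settings for eIF4E over Input and each of the 11 for eIF4E over IgG. The calls of Atf5 and Ppp1r15b over Input were each kept in 7 of 13. Leaving out eIF4E replicate 2 or Input replicate 2 left 1 member called over Input, Atf4.

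The letters at the annotated starts are shown because the cap lies at the 5′ end and uORFs follow it; which start is used in these cells is not known from these data. RefSeq start windows (GRCm38.p6) were found for Atf4, Atf5, Ddit3, Ppp1r15a and Trib3, with 6 starts in all, since Atf5 has 2. The first base is A or G at each of these 6 starts, whereas terminal oligopyrimidine mRNAs begin with C, as do 16.3% of the 32851 starts in the table. An ATG, the letters at which a uORF could begin, stands within the first 50 bases at 3 of the 6 starts, and in 44.3% of all windows. Those 3 stretches follow, from base 21 to base 50 after the annotated start, with ATG in capitals.
Ddit3 (chr10:127290813-127290842, + strand): acacgtcgattatatcATGttgaagATGag
Ppp1r15a (chr7:45526219-45526248, − strand): aagccgcgtggacgATGttggcgcagattg
Atf5, inner start (chr7:44815609-44815638, − strand): gatctgtgtgtgtgacactgATGaagggcc

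The first ATG falls at base 37 in Ddit3, base 35 in Ppp1r15a and base 41 in the inner start of Atf5. At Ppp1r15a the letters TATAAA stand at base 16, ahead of the ATG and after the annotated start, so the annotated start may not be where most of its transcripts begin. Whether these ATGs open the known uORFs is not annotated in the sources used here. Of the 3 mRNAs, Atf5, whose outer start has no ATG in this stretch, fell over Input, and Ddit3 and Ppp1r15a did not pass.

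ATF4, the protein, acts on its targets through a composite site shared with C/EBP factors, here searched as TGATGNAA on both strands of the 300-base windows, and many of its relatives bind the palindrome TGACGTCA. The first was found in Trib3 alone among the members and in 3.97% of all windows. The palindrome was found in Ppp1r15a alone and in 1.79% of all windows. These 2 stretches are shown because they hold the matches, which are in capitals. Ddit3, which ATF4 also induces, had neither within its window. Each window spans 250 bases before the annotated start and 50 after it, and sites further out were not searched. A match is letters only and shows no binding.
Trib3 (chr2:152344028-152344057, − strand): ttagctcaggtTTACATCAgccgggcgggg
Ppp1r15a (chr7:45526262-45526291, − strand): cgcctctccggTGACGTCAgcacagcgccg

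Both precipitates and the Input carried the neocortical markers, and 10 of 10 were tested. Their summed abundance was 1311 and 1349 in eIF4E, 1340 in IgG, and 953 and 951 in Input. In eIF4E over Input 8 were higher and 2 lower, where 43.3% and 30.6% of all genes were. Emx1 stood at 0.369 of Input and Fezf2 at 0.78. Replicate libraries lay close together, with Pearson's r across genes of 0.989 for eIF4E and 0.993 for Input. The IgG library stood apart, with r of 0.593 to 0.707 to the others, and among 5403 genes that exceeded 10 in both eIF4E and both Input libraries it listed 360 at 0. Erythroid markers summed to 6448 and 4845 in eIF4E, 2541 in IgG, and 17169 and 18701 in Input. In IgG over Input, 7 of the 9 tested were lower, but Alas2 (3.35-fold) and Slc4a1 (3.19-fold) were higher. Of all genes, 50.3% were lower and 37.8% higher in that comparison. For endothelial and mural markers the sums were 61.4 and 61.2 in eIF4E, 20.6 in IgG, and 130.6 and 138.6 in Input. Rgs5 alone held 17.49 of the IgG sum, and 4 of the 9 markers were listed at 0 there. In eIF4E over Input, Rgs5 rose 2.62-fold, while Cldn5 and Vtn fell to 0.404 and 0.344. Of the 8 tested, 1 was higher, 4 lower and 3 not called. Microglial markers summed to 24.4 and 19.7 in eIF4E, 21.97 in IgG, and 50.3 and 59.4 in Input, and meningeal markers to 95.5 and 91.4 in eIF4E, 274.4 in IgG, and 134.2 and 115.3 in Input. The microglial and meningeal IgG sums rest mostly on 1 gene each. The microglial one is C1qb at 21.85, with 6 of the 8 microglial markers listed at 0. The meningeal one is the collagen gene Col3a1 at 241.79, with 4 of the 8 meningeal markers listed at 0. Among those 4, the meningeal Dcn and Lum were higher in eIF4E than in Input (2.55-fold and 2.38-fold). The other 3 meningeal markers tested were lower: Col1a1, Col1a2 and Col3a1 stood at 0.28, 0.46 and 0.57 of Input. These sums come from bulk libraries of cytoplasmic supernatant, precipitated or not, so they do not count cells. The part of other cell types in the values below was not tested.

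**Figure D1:**
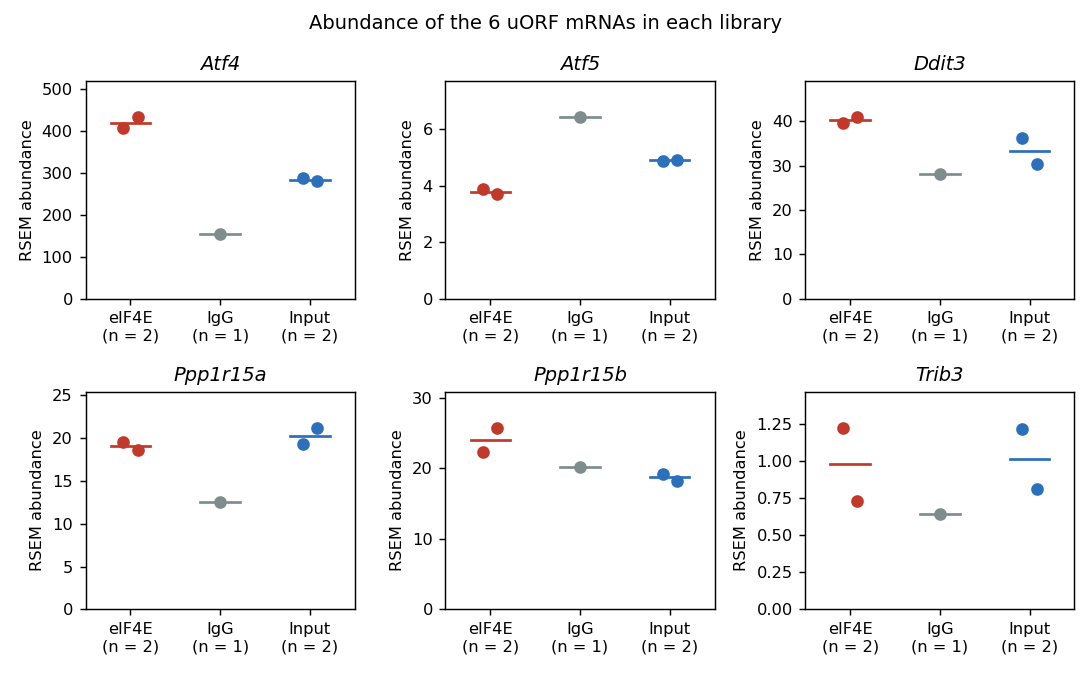
RSEM abundance (TPM or FPKM, vertical axes from 0, a different scale for each gene) of the 6 mRNAs; each point is a library and each line a group mean. Atf4 was highest in both eIF4E libraries and lowest in IgG, Atf5 ran the other way, and the eIF4E and Input points of Ppp1r15a and Trib3 overlap.

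Atf4 encodes the bZIP transcription factor that carries the response to the nucleus, and its mRNA is the classic example of uORF control. It lies on chromosome 15 from 80255184 to 80257545 (GRCm38). Atf4 measured 407.48 and 433.34 in the eIF4E libraries, 155.75 in the IgG library, and 287.42 and 280.38 in the Input libraries. Each eIF4E library was above each Input library, and IgG was below all 4. Its level was above 95.35% or more of the genes tested in every library. Over Input the change was 1.48-fold on the scale of value + 1 (log2 0.56, SE 0.05, limma adjusted p = 5.7e-04). Over IgG it was 2.69-fold (log2 1.43, SE 0.06, adjusted p = 4.8e-05). Among all genes tested these changes ranked at the 64.1 and 71.0 percentiles, and the median gene moved by log2 0.16 and 0.55. Atf4 made up most of the summed abundance of the 6 mRNAs: 82.5% and 82.9% in eIF4E, 69.6% in IgG, and 78.1% and 78.8% in Input.

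Atf5, the closest relative of ATF4 among the members, is also a bZIP factor and carries uORFs of the same arrangement. It lies on chromosome 7 from 44812256 to 44816658. Its mRNA was scarce and moved opposite to Atf4, with 3.88 and 3.70 in eIF4E, 6.43 in IgG, and 4.89 and 4.91 in Input. The eIF4E libraries were below both Input libraries, and IgG was above all 4. It fell to 0.812 of Input (log2 −0.30, SE 0.09, limma adjusted p = 0.0346) and to 0.645 of IgG (log2 −0.63, SE 0.11, adjusted p = 0.00463), at the 31.7 and 25.3 percentiles of all genes. The ratio of Atf4 to Atf5 was 105 and 117 in eIF4E, 24.2 in IgG, and 58.8 and 57.1 in Input, without overlap between eIF4E and Input. With 2 libraries against 2, an exact two-sided permutation test cannot go below p = 0.333, which is the value it gave. The call over Input was lost when any 1 of the 4 eIF4E or Input libraries was left out (adjusted p = 0.0782 without eIF4E replicate 1, 0.114 without eIF4E replicate 2, 0.104 without Input replicate 1 and 0.108 without Input replicate 2) and when libraries were set to equal totals (log2 −0.10, adjusted p = 0.355), while quantile normalization gave log2 −1.11. Atf5 overlaps Nup62 over 571 bases on the opposite strand, the libraries do not mark strand, and Nup62 measured 163.93 and 174.38 in eIF4E, 47.28 in IgG, and 245.99 and 241.66 in Input; its part in the value of Atf5 was not tested.

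Ddit3 encodes CHOP, a C/EBP-family factor that ATF4 induces and that is linked to cell death under prolonged stress. It lies on chromosome 10 from 127290793 to 127296291. Ddit3 measured 39.64 and 40.93 in eIF4E, 28.23 in IgG, and 36.28 and 30.37 in Input. Its annotated ends overlap Mbd6 and Mars1 on the opposite strand by 77 and 71 bases. Mbd6 measured 6.92 and 3.59 in eIF4E, 8.13 in IgG, and 4.63 and 3.43 in Input. Mars1 measured 25.61 and 27.28 in eIF4E, 23.26 in IgG, and 69.34 and 69.6 in Input. Their part in the value of Ddit3 was not tested. For Ddit3 the eIF4E libraries were above both Input libraries, but the Input libraries were apart by more than the gap between the groups. Over Input the change was 1.21-fold and did not pass (log2 0.27, 95% interval 0.01 to 0.54, limma adjusted p = 0.0601). It passed over Input without Input replicate 1 (log2 0.40, adjusted p = 0.0277) and with equal library totals (log2 0.51, adjusted p = 0.00934), and lay at log2 −0.04 after median-of-ratios scaling. Over IgG it rose 1.41-fold (log2 0.50, SE 0.12, adjusted p = 0.0149), at the 48.8 percentile; it missed the threshold without eIF4E replicate 1 (adjusted p = 0.054), without eIF4E replicate 2 (0.0664), without the filter on low values (0.0516) and after rescaling to the same total (0.295).

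Ppp1r15a and Ppp1r15b encode the regulatory subunits that bring protein phosphatase 1 to eIF2 and so end the response. Ppp1r15a, also known as GADD34, is the stress-induced subunit, and Ppp1r15b, also known as CReP, is the constitutive one. Ppp1r15a (chromosome 7, 45522917 to 45526268) measured 19.49 and 18.57 in eIF4E, 12.50 in IgG, and 19.26 and 21.17 in Input. Its eIF4E and Input libraries overlapped, and IgG was below all 4. Tulp2, which overlaps it over 730 bases on the opposite strand, was at most 0.19 in any library. Ppp1r15b (chromosome 1, 133131166 to 133139800) measured 22.31 and 25.71 in eIF4E, 20.12 in IgG, and 19.16 and 18.25 in Input. Its eIF4E libraries were above the rest, and IgG lay between them and Input.

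Over Input, Ppp1r15b rose 1.27-fold (log2 0.34, SE 0.09, limma adjusted p = 0.0240), whereas Ppp1r15a stood at 0.945 and did not pass (log2 −0.08, 95% interval −0.29 to 0.13, adjusted p = 0.393). Over IgG it was Ppp1r15a that rose, 1.48-fold (log2 0.57, SE 0.10, adjusted p = 0.00422), and Ppp1r15b did not pass (1.18-fold, 95% interval of log2 −0.06 to 0.54, adjusted p = 0.103). The ratio of Ppp1r15a to Ppp1r15b, which no rescaling of a library alters, was 0.874 and 0.722 in eIF4E, 0.621 in IgG, and 1.01 and 1.16 in Input. The eIF4E ratios were below both Input ratios; the exact two-sided permutation test gave p = 0.333, the smallest this design allows. The call of Ppp1r15b over Input was lost without eIF4E replicate 2 (adjusted p = 0.0718), without Input replicate 1 (0.0853) or Input replicate 2 (0.125), without the filter (0.0642), under median-of-ratios scaling (log2 0.03, adjusted p = 0.788) and under quantile normalization (log2 0.08, adjusted p = 0.479). After those 2 scalings Ppp1r15a was called lower (log2 −0.39 and −0.36, adjusted p = 0.00949 and 0.0151), and after rescaling to the same total it lay at log2 0.15 and Ppp1r15a over IgG no longer passed (adjusted p = 0.0638).

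Trib3, a pseudokinase that CHOP and ATF4 induce and that damps the response, was at the edge of detection. It lies on chromosome 2 from 152337425 to 152344060. Trib3 measured 1.22 and 0.73 in eIF4E, 0.64 in IgG, and 1.21 and 0.81 in Input. It reached 1 in 2 libraries, 1 of eIF4E and 1 of Input, which is the least the filter asks for, and the groups overlapped. Neither comparison passed (eIF4E over Input log2 −0.03, 95% interval −0.53 to 0.47, limma adjusted p = 0.896; eIF4E over IgG log2 0.26, adjusted p = 0.344). Quantile normalization turned the second to log2 −1.18 (adjusted p = 0.00345).

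**Figure D2:**
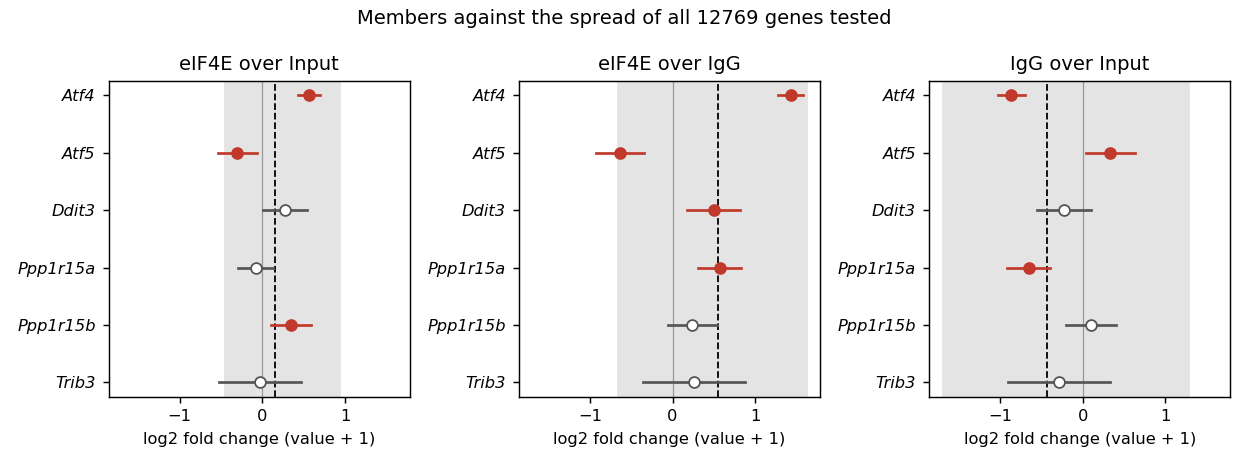
Log2 fold change of each mRNA on the scale of value + 1 with its 95% interval, for 3 comparisons; filled red points passed an adjusted p of 0.05, the grey band spans the middle 50% of all genes tested, the dashed line is their median and the thin line is 0. All 6 mRNAs lie inside the band in each panel.

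Set beside all genes, the 6 mRNAs had a median log2 change of 0.12 over Input, against 0.16 for all genes tested, and of 0.38 over IgG, against 0.55. The quartiles of all genes over Input were log2 −0.45 and 0.94, and all 6 members lay between them. Over Input 2 members were higher and 1 lower, where 43.3% and 30.6% of all genes were. Over IgG, 3 were higher (Atf4, Ddit3 and Ppp1r15a) and 1 lower (Atf5), 4 of 6 where 83.8% of all genes were called (53.1% higher and 30.6% lower). There is 1 IgG library, and the fit borrows its variance from the other libraries, so comparisons with it have no replicate check.

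The IgG library over Input gives each member's level in a precipitate without the eIF4E antibody. Atf4 fell to 0.550 of Input (limma adjusted p = 1.4e-04) and Ppp1r15a to 0.637 (adjusted p = 0.00235), and Atf5 rose 1.26-fold (adjusted p = 0.0395). The call of Atf4 was lost under quantile normalization (log2 −0.099, adjusted p = 0.242) and that of Ppp1r15a with equal library totals (log2 −0.095, adjusted p = 0.386). Atf5 passed in 5 of 11 alternatives: it missed under median-of-ratios scaling (log2 0.095, adjusted p = 0.472), under quantile normalization (log2 0.053, adjusted p = 0.717), and without eIF4E replicate 1 (0.0625), eIF4E replicate 2 (0.0626), Input replicate 1 (0.0979) or Input replicate 2 (0.0947). Across the alternatives Ddit3 ranged from log2 −0.50 to 0.35, Ppp1r15b from −0.25 to 0.66 and Trib3 from −0.56 to 0.81, each passing in some. With values as deposited, Ddit3 (log2 −0.23), Ppp1r15b (log2 0.10) and Trib3 (log2 −0.29) did not pass. That is 3 of 6, where 88.1% of all genes were called (37.8% higher and 50.3% lower). These 3 comparisons share libraries, so their values are side by side and do not support each other. The files do not give how much RNA each precipitate held, so a higher relative abundance over IgG does not show a higher amount.

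**Figure D3:**
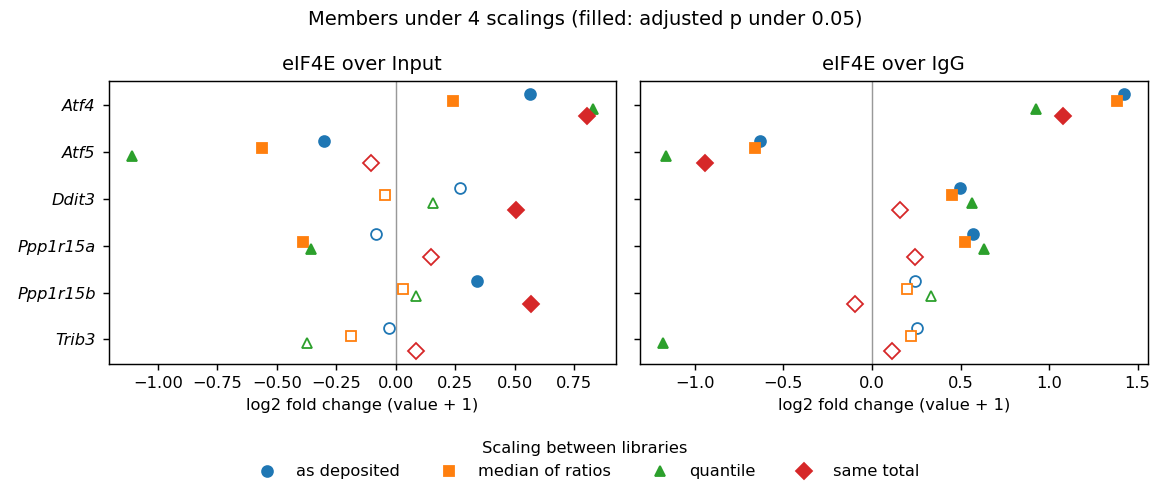
Log2 fold change of each mRNA (value + 1) with values as deposited and under 3 other scalings between libraries; filled symbols passed an adjusted p of 0.05. Atf4 lies right of 0 and Atf5 left of 0 under each scaling, whereas Ddit3, Ppp1r15a and Trib3 cross 0 over Input, and Ppp1r15b and Trib3 over IgG.

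The values depended on the scale set between libraries. The median change of all genes over Input was log2 0.16 as deposited, −0.11 after median-of-ratios scaling, −0.11 after quantile normalization and 0.36 after rescaling to the same total. The share of called genes that were higher was 58.6%, 45.7%, 45.5% and 70.3% in that order. Relative to the median of all genes, Atf4 lay at log2 0.41 over Input as deposited, and between 0.35 and 0.94 under the alternatives. Ppp1r15b lay at 0.18 (0.07 to 0.29), Ddit3 at 0.11 (0.00 to 0.27), Trib3 at −0.19 (−0.37 to −0.02), Ppp1r15a at −0.24 (−0.31 to −0.13) and Atf5 at −0.46 (−0.99 to −0.35).

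Upstream of the members stand the kinases that phosphorylate eIF2. With values as deposited all 4 passed as higher over Input, but none of the 4 passed after quantile normalization, and Eif2ak1 turned to log2 −0.04 there and to −0.06 after median-of-ratios scaling. Eif2ak1, the heme-regulated kinase HRI, measured 19.63 and 19.90 in eIF4E, 22.80 in IgG, and 16.97 and 15.91 in Input (1.19-fold over Input, limma adjusted p = 0.0255). Eif2ak3, the ER-membrane kinase PERK, measured 3.22 and 2.94 in eIF4E, 3.28 in IgG, and 1.06 and 1.73 in Input (1.72-fold over Input, adjusted p = 0.0123). Eif2ak4, the amino acid sensor GCN2, measured 10.36 and 8.28 in eIF4E, 24.70 in IgG, and 5.45 and 4.64 in Input, above Input (1.70-fold, adjusted p = 0.00649) and below IgG (adjusted p = 0.00149). Eif2ak2, the double-stranded RNA sensor PKR, was at 1.22 and 1.40 in eIF4E, listed at 0 in IgG, and at 0.05 and 0.62 in Input (adjusted p = 0.031 over Input, and 0.0549 after median-of-ratios scaling). Eif2ak2 reached 1 in the eIF4E libraries alone, so it passed the filter through the group where it was high. Its call over Input is therefore no support. Among the 4 kinases Eif2ak1 had the highest level in both eIF4E and both Input libraries. Of the 10 kinases and regulators listed, 7 were higher over Input (Eif2ak2 included), 2 lower and 1 not called. Of all genes, 43.3% were higher and 30.6% lower. The list median over IgG was log2 0.11, against 0.55 for all genes tested. In IgG over Input it was 0.39, against −0.43. On the scale of value + 1, which understates the change of scarce mRNAs, Impact, an inhibitor of GCN2 activation, rose 4.97-fold and Dnajc3, an inhibitor of PKR and PERK, 2.30-fold, while the ratio of mean values was 2.99 for Dnajc3 and 7 for Impact. Impact was also 4.05-fold higher in IgG than in Input and did not pass over IgG (adjusted p = 0.0779), and Dnajc3 was listed at 0 in IgG. Gcn1, the activator of GCN2, fell to 0.538 and Dele1, which relays mitochondrial stress to HRI, to 0.823 (not passing with equal library totals, adjusted p = 0.644). The count of called genes was 5 without eIF4E replicate 1, 5 without eIF4E replicate 2 and 5 after quantile normalization, against 9.

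Of 13 genes for eIF2, its exchange factor eIF2B and factors that act on start-site choice or reinitiation, 8 rose and 5 fell over Input with values as deposited, where 73.9% of all genes were called. Eif2b3 no longer passed under median-of-ratios scaling (adjusted p = 0.149), nor Eif2b5 after rescaling to the same total (adjusted p = 0.0565). The list median over IgG was log2 0.50, against 0.55 for all genes tested. In IgG over Input it was 0.33, against −0.43. Eif2s1, the subunit that is phosphorylated, measured 51.95 and 49.95 in eIF4E, 18.28 in IgG, and 21.18 and 20.37 in Input, a rise of 2.39-fold over Input (limma adjusted p = 1.3e-04); over IgG the rise was 2.69-fold (adjusted p = 8.5e-05). Eif2s2 rose 9.47-fold over Input and Eif5, the GTPase-activating factor of eIF2, 5.45-fold, but both were high in the IgG precipitate as well, at 8.25-fold and 3.86-fold over Input. Eif2s2 measured 82.77 and 82.92 in eIF4E and 72.03 in IgG, 1.15-fold over IgG (adjusted p = 0.0448), which did not pass under any of the 3 other scalings and turned to log2 −0.15 after rescaling to the same total. Eif5 was 1.41-fold higher over IgG (adjusted p = 0.00622), but stood at log2 −0.16 under quantile normalization (adjusted p = 0.205) and 0.15 after rescaling to the same total (adjusted p = 0.229). The eIF2B subunits Eif2b2 and Eif2b4 fell to 0.515 and 0.560 of Input; over IgG, Eif2b2 stood at 0.745 and Eif2b4 at 9.43-fold. Of the catalytic subunits of protein phosphatase 1 that Ppp1r15a and Ppp1r15b bind, Ppp1ca fell to 0.434 of Input, and Ppp1cb and Ppp1cc rose 3.64-fold and 1.40-fold (Ppp1cc not after median-of-ratios scaling, adjusted p = 0.129). Over IgG each went the other way: Ppp1ca was 3.46-fold higher, Ppp1cb stood at 0.771 (adjusted p = 0.0184) and Ppp1cc at 0.628 (adjusted p = 0.00257). In IgG over Input, Ppp1ca stood at 0.125, Ppp1cb at 4.73-fold and Ppp1cc at 2.23-fold.

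Among relatives of the members, 11 of 15 bZIP and Tribbles genes were tested, and 6 rose, 1 fell and 4 did not pass over Input, 7 of 11 called where 73.9% of all genes were. The list median over IgG was log2 0.61, against 0.55 for all genes tested. Trib2, the Tribbles paralog with the highest level here, measured 52.29 and 50.61 in eIF4E, 49.61 in IgG, and 34.06 and 33.61 in Input (1.51-fold over Input, limma adjusted p = 6.7e-04). Trib1 measured 6.18 and 6.85 in eIF4E, was listed at 0 in IgG, and measured 6.58 and 6.64 in Input; it did not pass over Input (log2 −0.02, adjusted p = 0.871) but was lower after quantile normalization (log2 −0.62, adjusted p = 0.00776). Atf3, a stress-induced repressor, was at 0.97 and 1.55 in eIF4E, listed at 0 in IgG, and at 0.97 and 1.24 in Input, and did not pass over Input (adjusted p = 0.655). The cAMP-response relatives Atf1 and Atf2 rose 4.69-fold and 3.55-fold over Input and 2.18-fold and 1.53-fold over IgG. The ER-membrane factor Atf6b fell to 0.534 of Input and did not pass over IgG (adjusted p = 0.692).

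Target genes of ATF4, many of them for amino acid synthesis and transport, mostly fell over Input: of 25 tested among 30 listed, 17 were lower, 4 higher and 4 not called, with a median of log2 −0.69, where 30.6% of all genes were lower and 43.3% higher. The amino acid transporter genes Slc3a2 and Slc7a1 fell furthest, to 0.333 and 0.335 of Input (limma adjusted p = 6.2e-05 and 4.5e-04). Over IgG, Slc3a2 stood at 2.27-fold and Slc7a1 at 0.102. Vldlr, a lipoprotein and reelin receptor, and Cebpg, a dimer partner of ATF4, rose 3.46-fold and 2.69-fold on the scale of value + 1, with ratios of mean values of 6.51 and 3.41. Vldlr measured 5.16 and 5.32 in eIF4E, 0.7 and 0.91 in Input, and was listed at 0 in IgG. It passed the filter through the eIF4E libraries alone, so its rise over Input is no support. Some targets called lower reached 1 in the Input libraries alone, and the same holds for them. Cebpg did not pass over IgG (limma adjusted p = 0.344). Across the alternatives 14 to 19 of the targets were lower and 3 to 5 higher. Over IgG, 15 of the 25 were higher and 3 lower, where 53.1% and 30.6% of all genes were, and 8 of the 25 were listed at 0 in IgG. In IgG over Input the list median was log2 −1.24, against −0.43 for all genes tested.

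A list of other mRNAs with known regulatory uORFs was set beside the 6 members. Of 12 listed, 10 were tested, and 8 rose, 1 fell and 1 was not called over Input, with a median of log2 1.37, against 0.12 for the 6 members and 0.16 for all genes; of all genes, 43.3% were higher and 30.6% lower. The list was high in IgG over Input as well, with a median of log2 1.11, against −0.43 for all genes tested. Ibtk, whose uORFs also answer to eIF2 phosphorylation, measured 20.96 and 24.19 in eIF4E, 11.82 in IgG, and 2.25 and 2.16 in Input, a ratio of mean values of 10.2 over Input and 7.34-fold on the scale of value + 1 (limma adjusted p = 7.7e-05). Amd1, a polyamine-synthesis enzyme with a polyamine-sensing uORF, rose 5.98-fold over Input (adjusted p = 5.4e-05), but was also 4.76-fold over Input in IgG. Its change over IgG was 1.26-fold as deposited and log2 −0.016 after rescaling to the same total. Slc7a1, the one that fell, stood at 0.335 of Input. Over IgG the same list had a median of log2 0.29, below the 0.55 of all genes. The difference between the members and this list was not tested.

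**Figure D4:**
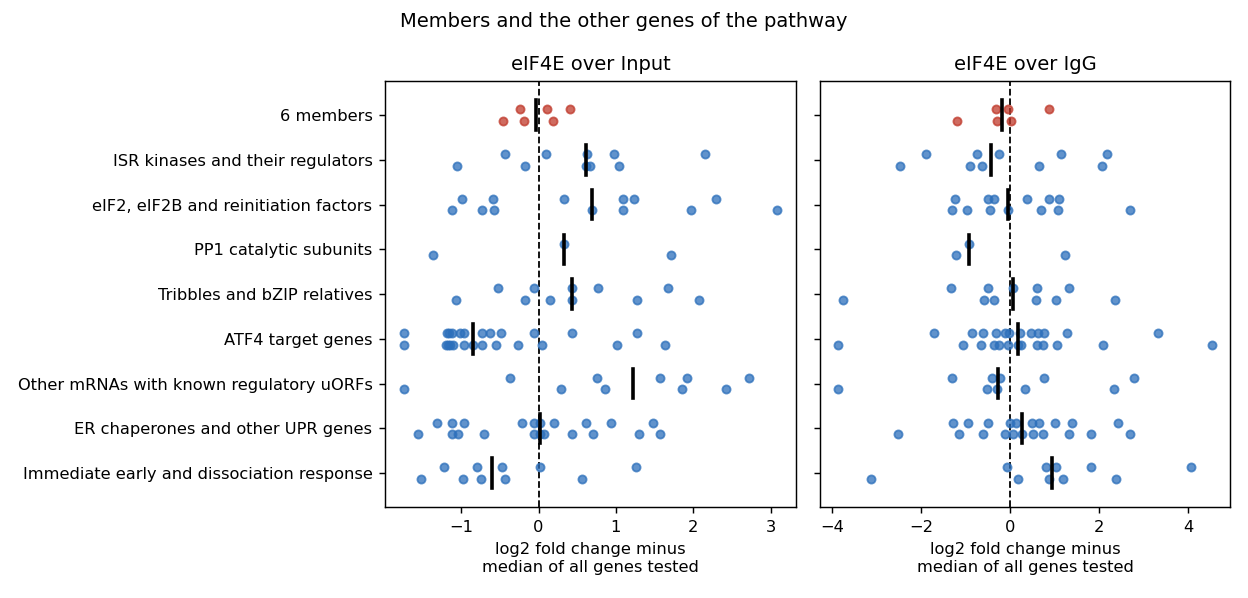
Log2 fold change of each tested gene minus the median of all genes tested, for the 6 members (red) and 8 lists of pathway genes (blue), over Input and over IgG; each point is a gene, the black bar is the list median and the dashed line is the median of all genes. Over Input the medians lie near the dashed line for the members, left of it for the ATF4 targets and right of it for the other uORF mRNAs, with single genes of both lists on either side.

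Of 21 ER chaperones and related genes of the unfolded protein response, 9 rose, 7 fell and 5 were not called over Input, 76.2% called against 73.9% of all genes. The list median over IgG was log2 0.82, against 0.55 for all genes tested. Over IgG, the ER chaperone genes Hsp90b1 and Calr stood at 1.04-fold and 1.77-fold, the protease gene Mbtps2 at 0.666 and the chaperone gene Hyou1 at 5.2-fold. In IgG over Input, Hsp90b1 was at 2.98-fold, Mbtps2 at 4.97-fold, Calr at 0.254 and Hyou1 at 0.073. In eIF4E over Input, Hsp90b1 and Calr stood at 3.10-fold and 0.448, Mbtps2 at 3.31-fold and Hyou1 at 0.378. Across the alternatives 6 to 13 of this list were higher and 7 to 8 lower. Since the cells were dissociated with enzymes before lysis, immediate early genes were followed as well: of 10 tested among 17 listed, 7 fell, 2 rose and 1 was not called over Input, where 30.6% of all genes were lower and 43.3% higher. The list median was log2 −0.45 over Input and 1.50 over IgG, where all genes tested had medians of 0.16 and 0.55. Junb and Ier3 fell to 0.389 and 0.479 of Input, and Btg2 and Klf6 rose 1.65-fold and 2.67-fold. The summed abundance of that list was 676 and 707 in eIF4E, 317.9 in IgG, and 630.5 and 643.8 in Input, and its part in the levels of the members was not tested.

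For each member, the 2 genes of like pattern were those with the smallest Euclidean distance between mean-centred log2 profiles over the 5 libraries. For Atf4 they were Txnl1 (distance 0.0857) and Arih2 (0.0914). For Atf5 they were Lrrc8a (0.0361) and Sptlc1 (0.0946), for Ddit3 Pdrg1 (0.0971) and Atp2a2 (0.129), and for Ppp1r15a Zbed3 (0.0857) and Spindoc (0.0973). For Ppp1r15b they were Nutf2-ps1 (0.080) and Mllt11 (0.0833), and for Trib3 Cd200 (0.122) and Erp44 (0.188). As an example of such a profile, Txnl1 measured 99.11 and 104.67 in eIF4E, 36.94 in IgG, and 73.31 and 71.04 in Input.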

How the data were processed

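RNA from eIF4E precipitates (n = 2), 1 IgG precipitate and cytoplasmic Input (n = 2) was made into Smart-seq2 libraries, which are primed on poly(A) tails and do not mark strand or molecules, per the labels' protocols. The deposited table holds 1 signal column per library, an RSEM abundance that is never negative and not on a log scale; whether TPM or FPKM is not given in the sources used here. Per the submitters' processing notes, the build was mm10 and the tools included RSEM 1.3.3 and STAR 2.7.9a. Of 50161 rows, 286 repeated a gene ID and were dropped. The 12769 genes that reached 1 in 2 or more libraries were tested as log2(value + 1) with limma 3.58.1 in R 4.3.3, using a trended prior and a two-sided test, with p-values adjusted by Benjamini-Hochberg over all of them (threshold 0.05). A gene could pass this filter through 1 group alone, and a call that it is higher in that group is then no support. All 5 libraries and 3 groups shared 1 spread with 2 residual and 2.571 prior degrees of freedom. The labels number the eIF4E and Input libraries as biological replicates but do not tie them to animals. The p-values reflect only how these libraries vary, and how much of that is technical is not known. The fit was tested on simulated data.

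The members, the gene lists and the tests were chosen with earlier results of these data known. Genes named besides the members are the 4 eIF2 kinases, Eif2s1, Trib1, Trib2, Atf3, the 2 highest and 2 lowest called changes over Input in each list, and the 2 genes of like pattern per member above the median level, without predicted or clone names. Nup62, Mbd6, Mars1 and Tulp2, for their overlap with members, and Col3a1, Alas2, Slc4a1, Eif2b3 and Eif2b5 were named after values were seen. Coordinates and start windows are from RefSeq on GRCm38.p6, the assembly of mm10, matched by symbol (6 of 6 loci and 5 of 6 members with start windows). Depth is unknown, so no counting intervals are given.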

Additional observations from a re-analysis of the deposited data

How the results depend on the processing

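Atf4 kept its direction and its call over Input (log2 0.24 to 0.83) and over IgG (0.93 to 1.47) under every alternative run, and Atf5 over IgG (−1.16 to −0.61). Median-of-ratios scaling gave log2 −0.045 for Ddit3, −0.39 for Ppp1r15a and 0.031 for Ppp1r15b over Input, and −0.17 for Ppp1r15b in IgG over Input. Quantile normalization gave −0.36 for Ppp1r15a and 0.083 for Ppp1r15b over Input, −1.18 for Trib3 over IgG, and −0.25 for Ppp1r15b and 0.81 for Trib3 in IgG over Input. Rescaling to the same total gave −0.10 for Atf5, 0.51 for Ddit3, 0.15 for Ppp1r15a and 0.086 for Trib3 over Input, 0.16 for Ddit3, 0.24 for Ppp1r15a and −0.095 for Ppp1r15b over IgG (2 members called), and 0.35 for Ddit3 in IgG over Input. Without the filter, Ppp1r15b over Input (0.34) and Ddit3 over IgG (0.50) no longer passed. The cause of these changes was not tested.

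With 1 library left out in turn, the members called ranged from 1 to 2 over Input and from 3 to 4 over IgG. Over Input the values were −0.33 to −0.27 for Atf5, 0.15 to 0.40 for Ddit3, 0.24 to 0.44 for Ppp1r15b and −0.21 to 0.15 for Trib3; over IgG they were 0.48 to 0.52 for Ddit3 and 0.14 to 0.34 for Ppp1r15b. The deviations of same-numbered eIF4E and Input libraries were barely related across genes (r = 0.0236). Whether the replicate number marks libraries from the same cells is not given in the labels, and this r cannot settle it. With the number as a block, 9150 genes were called over Input against 9441, and Atf5 no longer passed (log2 −0.30, adjusted p = 0.0796). Of the list counts, recomputed after seeing the data, 298 stayed within 1.5 times and 14 did not. Depth is unknown, and for Trib3 the values allow little to be said.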
